A study of Homo sapiens with 24 samples.

Results

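The 10 genes described here are the AP-1 genes FOS, FOSB, FOSL1, FOSL2, JUN, JUNB and JUND and the related early response genes ATF3, EGR1 and IER3. They were taken as a named list, chosen with earlier results of these data known, and make up 10 of the 23284 rows of the deposited expression table. RNA sequencing of polyadenylated RNA was done in 6 established lines labelled as hepatocellular carcinoma: HepG2, Huh7, Huh1, Hep3b, SK-HEP1 and HLE. Each line received a control siRNA (siCTL) or one against SFPQ (siSFPQ), and was left without TGF-beta or kept for 24 hours in 2 ng/ml of it. All lines are labelled wild type apart from the siRNA. SFPQ is an RNA-binding protein of nuclear paraspeckles, and TGF-beta is a cytokine whose signal is carried by SMAD proteins, with SMAD4 as their shared partner.

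The 4 groups hold 6 libraries each, 1 per line, so the line is the replicate. The p-values weigh a mean change against the spread of that change between lines. The labels name 1 siRNA condition against SFPQ, with no other siRNA sequence and no re-expression of SFPQ, and give 1 time after TGF-beta. Early genes usually peak well before a day of treatment, so the values describe the late state and not the first wave.

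AP-1 is a pair of basic leucine zipper proteins, usually 1 of the FOS family with 1 of the JUN family or 2 of the JUN family. FOS family proteins cannot pair with themselves, and they gain DNA binding by joining a JUN protein. The pairs bind the TGACTCA site, and pairs that include ATF proteins often favour TGACGTCA. JUN carries a strong activation domain, while JUNB and JUND often act more weakly or against it, and FOSL1 and FOSL2 lack the strong activation domain of FOS and FOSB. ATF3 is a stress-induced member of the same zipper superfamily, EGR1 is a zinc finger factor switched on by the ERK pathway and SRF, and IER3 is a short-lived protein of the survival and NF-kB response. In liver cells, growth factors and injury switch these genes on, and AP-1 proteins also bind together with SMADs at TGF-beta target genes.

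RefSeq promoter sequence was found for 8 of the 10 genes, FOSL1 and IER3 being the others. Those of FOSB, FOSL2 and JUNB are shown because these 3 genes were higher after SFPQ knockdown, that of JUND because it was lower in 1 comparison, and that of EGR1 for its serum response sites. Each is the stretch just before the annotated start site in the GRCh38.p14 build, 5′ to 3′ on the gene's strand, at chr19:45467846-45467995 (plus strand) for FOSB, chr2:28392708-28392857 (plus strand) for FOSL2, chr19:12791336-12791485 (plus strand) for JUNB, chr19:18281623-18281872 (minus strand) for JUND and chr5:138465329-138465478 (plus strand) for EGR1. Capitals mark the CREB and ATF core TGACGT (or ACGTCA, its other strand), its full form TGACGTCA, and in EGR1 the CArG boxes that SRF binds.
FOSB: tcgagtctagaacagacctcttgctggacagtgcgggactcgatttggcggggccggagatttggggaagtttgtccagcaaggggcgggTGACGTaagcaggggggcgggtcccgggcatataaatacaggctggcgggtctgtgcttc
FOSL2: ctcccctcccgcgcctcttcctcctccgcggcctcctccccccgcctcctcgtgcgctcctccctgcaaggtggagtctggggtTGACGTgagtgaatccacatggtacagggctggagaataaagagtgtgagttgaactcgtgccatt
JUNB: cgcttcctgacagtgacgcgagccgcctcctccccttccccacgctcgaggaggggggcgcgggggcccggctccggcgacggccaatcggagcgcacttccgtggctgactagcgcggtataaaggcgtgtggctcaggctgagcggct
JUND: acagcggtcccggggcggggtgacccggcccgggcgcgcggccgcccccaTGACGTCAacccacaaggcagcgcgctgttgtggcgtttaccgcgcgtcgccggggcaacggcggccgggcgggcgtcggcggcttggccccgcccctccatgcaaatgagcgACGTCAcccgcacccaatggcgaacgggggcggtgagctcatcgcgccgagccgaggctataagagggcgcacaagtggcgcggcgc
EGR1: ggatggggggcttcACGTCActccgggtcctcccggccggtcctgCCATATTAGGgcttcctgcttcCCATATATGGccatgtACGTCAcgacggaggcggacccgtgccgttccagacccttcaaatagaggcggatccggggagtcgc

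The motifs were searched on both strands from 250 bases before to 50 after each start, in the 8 genes and in 35116 promoters of the same length. The TGACGT core was in 5 of the 8, FOS, FOSB, FOSL2, JUND and EGR1, and in 7.98% of all promoters. In FOS, FOSB and FOSL2 it lay at close to the same distance, 64, 60 and 66 bases before the start, as the distances of its first base. The full TGACGTCA, which contains the core, was in JUND alone and in 1.85% of all promoters. JUN and ATF3 held the variant TGACATCA, found in 2.61% of promoters. EGR1 was the one gene of the 8 with a CArG box, and it held 2, while 1.29% of promoters held any. TGACTCA was in FOSL2 alone (4.95% of promoters), the TATA motif TATAAA was in FOS, FOSB, JUNB and ATF3 (11.5% of promoters), and the SMAD palindrome GTCTAGAC was in none of the 8 (0.2% of promoters). A match describes these letters in this window and is not evidence of binding.

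The table gives FPKM, fragments scaled to transcript length and to the mapped fragments of the library, so levels of different genes can be set side by side. Depth is not listed in it. An estimate from the steps between low values put the libraries at 0.353 to 1.75 times the median library, the shallowest being that of Huh7 with knockdown and TGF-beta (0.353) and that of HepG2 with knockdown alone (0.4). FOSB rested on an estimated 7 fragments in its lowest library, FOS on 14 and FOSL1 on 2, while every value of the other 7 genes rested on at least 31. SFPQ itself was at 84.7 to 248 FPKM in the 12 siCTL libraries and at 23.5 to 54.6 in the 12 siSFPQ libraries, so the groups did not overlap. The mean ratio of FPKM + 1, siSFPQ to siCTL, was 0.234 without TGF-beta (adjusted p = 0.00288, limma) and 0.255 with it (adjusted p = 0.00242, limma). Hepatocyte marker genes split the lines: the 10 markers summed to 12138 to 20400 FPKM in HepG2 and Huh7 and 1096 to 1791 in Huh1, but to 20.4 to 26.3 in SK-HEP1, 27.6 to 117 in HLE and 14.5 to 24.8 in the libraries labelled Hep3b. In those Hep3b libraries albumin (ALB) was at 0.514 to 0.951 FPKM and the hepatocyte factor HNF4A at 0.368 to 0.79, so the defining markers of a hepatocyte-like line were near absent. All 7 stellate and fibroblast markers reached 1 FPKM in each Hep3b library, and at most 5 did in any library of another line. They summed to 105.7 to 184.1 FPKM in Hep3b, 76.4 to 195.7 in SK-HEP1 and 4.15 to 108.2 in the other lines. None of 7 endothelial markers reached 1 FPKM in any library. Of the immune cell markers, PTPRC, CD3E and NKG7 stayed under 1 FPKM, CD14 reached 1 FPKM in 8 libraries (up to 9.77), and CD68 (7.03 to 80.5) and LYZ (1.18 to 743) did so in all 24. In such bulk samples fewer cells that express a gene and less of its RNA per cell cannot be told apart.

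Which AP-1 genes were most abundant differed between the lines. FOSL1 (the protein FRA-1) made up a mean 59.1% of the summed FPKM of the 7 FOS and JUN family genes in HLE (range 50.3% to 65.1% over its 4 libraries) and 48.7% in SK-HEP1 (33.9% to 58.1%). In Huh7 it was 0.0722% (0.0408% to 0.096%). JUND and JUNB led elsewhere: JUND took a mean 44.6% in Huh7 and JUNB 55% in Huh1, 39.1% in HepG2 and 36.2% in Hep3b. Counted over the 24 libraries, JUNB was the most abundant of the 7 in 11, FOSL1 in 7 and JUND in 6. Over the 12 siCTL libraries each of the 3 led in 4, and over the 12 siSFPQ libraries JUNB led in 7, FOSL1 in 3 and JUND in 2. The shares add to 100% in a library, so a gain of 1 gene lowers the others.

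**Figure D1:**
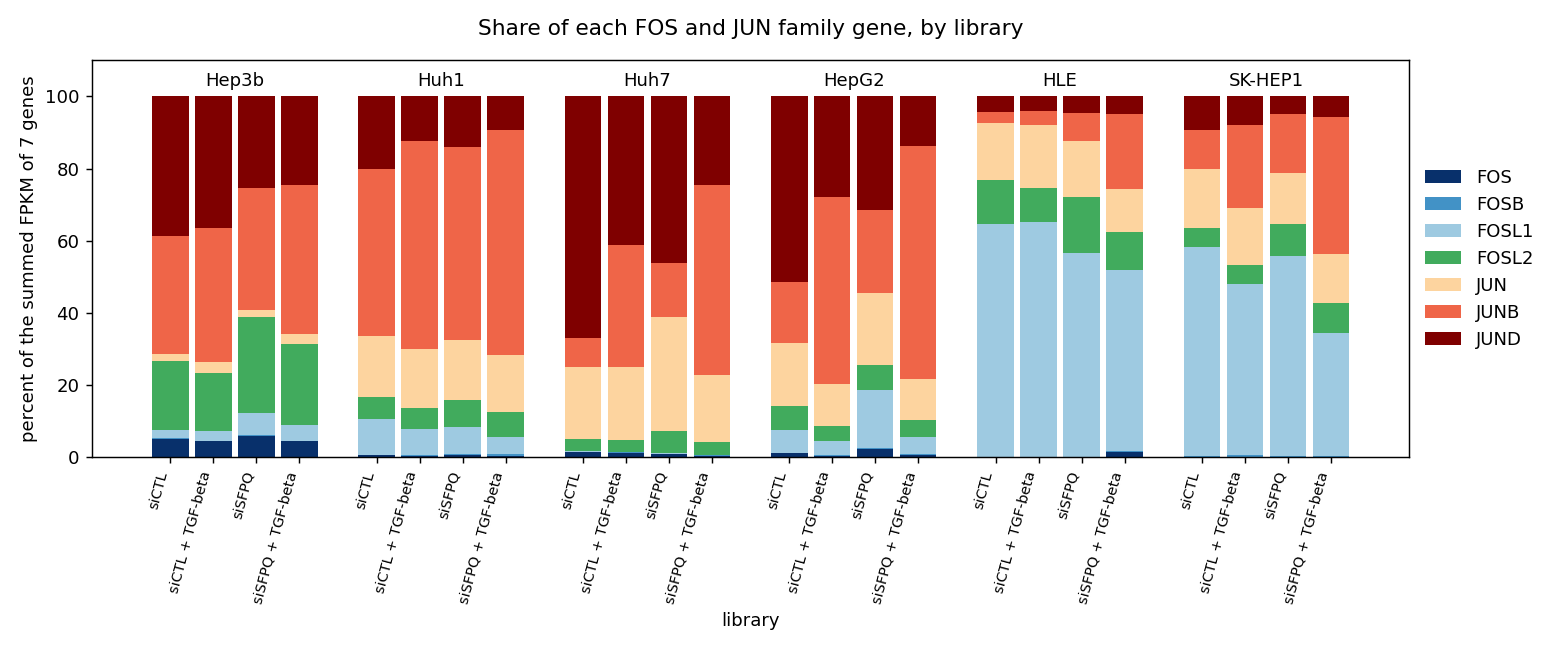
Each bar is 1 library and shows the percent of the summed FPKM of FOS, FOSB, FOSL1, FOSL2, JUN, JUNB and JUND held by each gene, in 6 lines and 4 groups. FOSL1 takes at least 33.9% in every HLE and SK-HEP1 library and at most 15.9% in the libraries of the other 4 lines, and the JUNB share is largest with siSFPQ and TGF-beta together in all 6 lines.

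Among the FOS family, FOS was highest in Hep3b, at 14.7 to 17.4 FPKM in its 4 libraries. The 5 other lines stayed at 0.367 to 9.91, and neither siRNA nor TGF-beta moved FOS in a common direction. In siCTL cells without TGF-beta it was lowest at 0.367 FPKM in HLE, with a median of 2.54 and a highest value of 17.4 in Hep3b. In siSFPQ cells with TGF-beta the lowest was 1.47 in SK-HEP1, the median 3.99 and the highest 14.7. The HLE library of that group held 9.91 FPKM (an estimated 236 fragments), against 0.367, 0.792 and 0.836 in the other 3 HLE groups. HLE was the 1 line with such a rise, and its change with TGF-beta in siSFPQ cells, 2.57 on the log2 scale, stood apart from the other lines, at -0.83 to 0.14.

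FOSB, the closest relative of FOS, was low in every library, and TGF-beta and SFPQ knockdown each went with more of it. Its lowest, median and highest values were 0.1, 0.377 and 0.649 FPKM in siCTL, 0.321, 0.854 and 1.59 in siCTL with TGF-beta, 0.346, 0.747 and 1.09 in siSFPQ, and 0.818, 1.71 and 2.55 in siSFPQ with TGF-beta. The values of siCTL and of siSFPQ with TGF-beta did not overlap. In all 6 lines FOSB was lowest in siCTL and highest in siSFPQ with TGF-beta, with a ratio between them of 1.26 in Hep3b up to 13.6 in HLE. The HLE siCTL value rests on an estimated 7 fragments.

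FOSL1 spanned a wide range between lines, with 4-library means of 419 FPKM in HLE (SD 48.3), 320 in SK-HEP1 (SD 82.5), 33.4 in HepG2 (SD 19.8), 32.4 in Huh1 (SD 3.07), 11.7 in Hep3b (SD 3.89) and 0.232 in Huh7 (SD 0.144). The ranges of HLE and SK-HEP1 overlapped, as did those of HepG2 and Huh1, and the other neighbours in this order did not. In HepG2 it was 18.6 FPKM in siCTL, 19.2 with TGF-beta, 60.9 in siSFPQ and 34.9 in siSFPQ with TGF-beta. Its mean over the lines was not called different in any comparison. FOSL2 (the protein FRA-2) ran from 7.06 FPKM in Huh7 siCTL to 116 in HLE siSFPQ. Its lowest, median and highest values were 7.06, 24.9 and 88.2 in siCTL and 11.6, 48.2 and 116 in siSFPQ, and 11.4, 28.4 and 62.5 against 19.1, 55.5 and 75.7 with TGF-beta. Those groups overlap across lines, but within each line the siSFPQ library was the higher one, with TGF-beta and without.

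JUN was far lower in Hep3b than in the other lines. Its group medians were 54 FPKM in siCTL, 77.1 in siCTL with TGF-beta, 70.1 in siSFPQ and 90.4 in siSFPQ with TGF-beta. Hep3b libraries held 5.12 to 10.2 FPKM, and the libraries of the other 5 lines 43.1 to 116. With TGF-beta, JUN went up in Hep3b, Huh1, Huh7 and HepG2 and down in HLE and SK-HEP1, in siCTL and siSFPQ cells alike. From siCTL to siSFPQ with TGF-beta it went from 43.1 to 96.6 FPKM in Huh7 and from 57.6 to 107.6 in Huh1. Its mean change with TGF-beta was 0.31 (SE 0.11, adjusted p = 0.245, limma) in siCTL cells and 0.30 (SE 0.17, adjusted p = 0.274, limma) in siSFPQ cells.

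JUNB had the largest mean log2 change of FPKM + 1 with TGF-beta among the 10 genes, in siCTL and in siSFPQ cells. On the ratio of FPKM itself FOSB, a low gene, exceeded it in siCTL cells of Huh1 (4.04 against 1.79), HLE (3.2 against 1.24) and SK-HEP1 (2.89 against 2.04), and in siSFPQ cells of Huh1 (2.9 against 2.1) and HLE (3.1 against 2.57). In siCTL cells JUNB was also exceeded by JUN (1.49) and FOSL1 (1.27) in Hep3b (JUNB 1.14), and by FOS (2.16) and IER3 (1.51) in HLE. In siSFPQ cells the same held for JUN (1.89) and IER3 (1.79) in Hep3b (JUNB 1.61), EGR1 (2.13) in Huh1 and FOS (11.8) in HLE. The lowest, median and highest JUNB values were 17.4, 55.2 and 158 FPKM in siCTL, 26.3, 126 and 282 in siCTL with TGF-beta, 28.9, 87.2 and 203 in siSFPQ, and 138, 285 and 480 in siSFPQ with TGF-beta. The last group lies above 5 of the 6 siCTL libraries, Huh1 siCTL being the exception. JUNB was highest in siSFPQ with TGF-beta in 6 of 6 lines and lowest in siCTL in 5 of 6, Hep3b being the exception, and the ratio of those groups ran from 1.24 in Hep3b to 15.9 in Huh7. Size of response differed widely: TGF-beta multiplied JUNB FPKM by 7.14 in Huh7 and 5.44 in HepG2 with siCTL, and by 1.14 in Hep3b and 1.24 in HLE. In HLE the step was 2.57 with siSFPQ.

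JUND, the constitutive JUN gene, was highest in HepG2, Huh7 and Hep3b and lowest in HLE. Its values in siCTL were 32.2 (lowest), 100.2 (median) and 149 FPKM (highest), and in siSFPQ 34.1, 59.3 and 120. Hep3b fell from 132 to 65.1 FPKM and Huh7 from 143 to 88, while HLE was at 32.2 and 34.1.

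**Figure D2:**
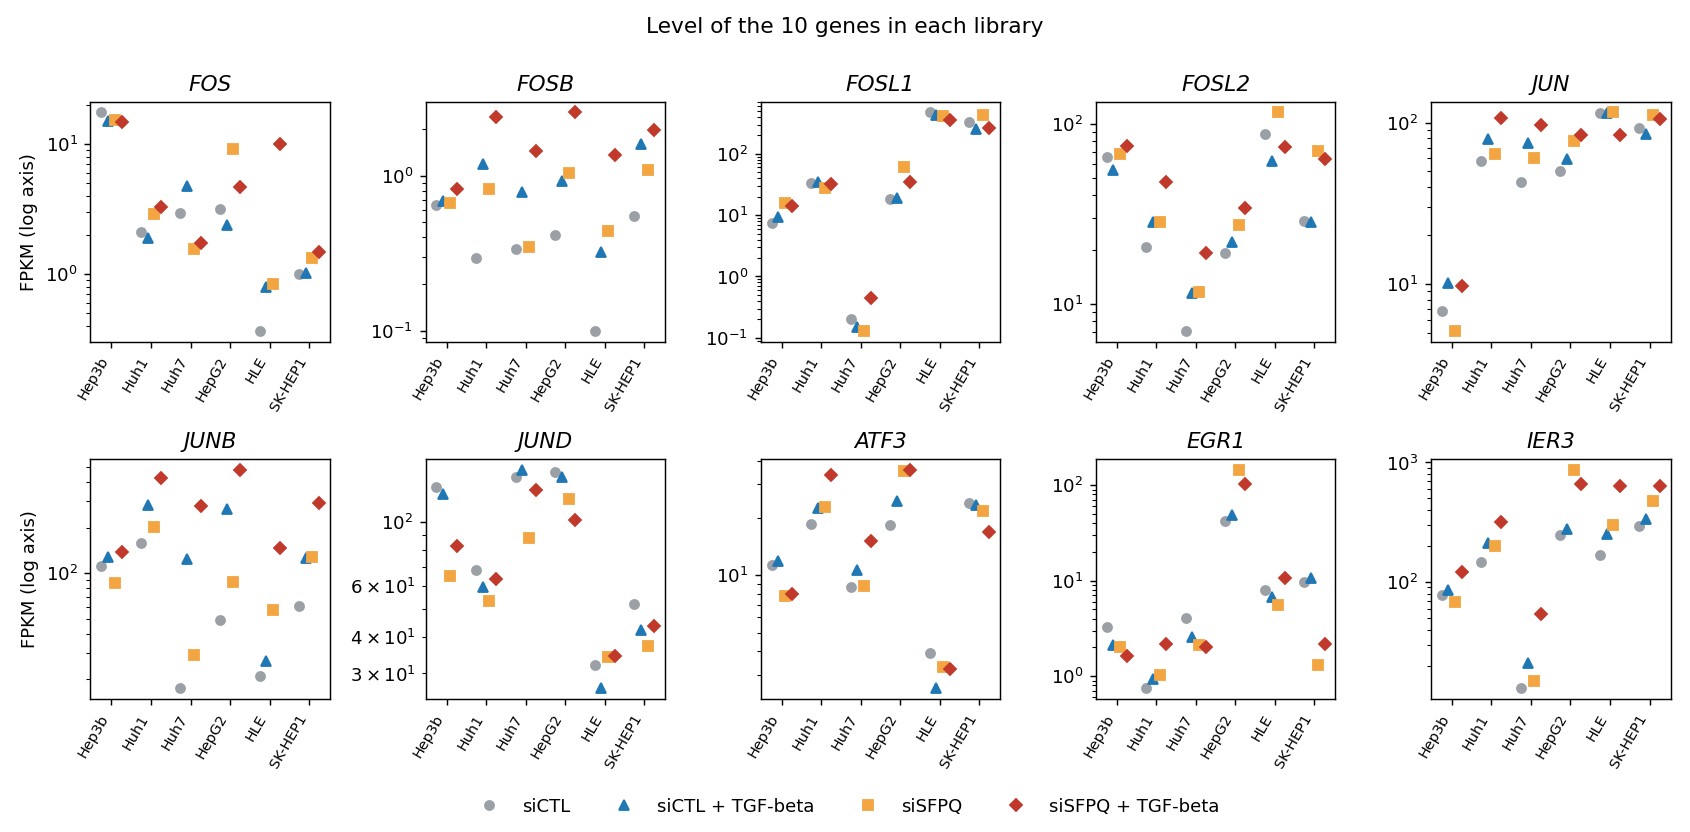
Each panel shows the FPKM of 1 gene on a log axis in 6 lines, with 1 point per library and the 4 groups side by side. FOSL1 spans 0.13 to 472 FPKM between lines, JUN is low in Hep3b and EGR1 is high in HepG2, while FOSB and JUNB are highest with siSFPQ and TGF-beta together (red diamonds) in all 6 lines.

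ATF3, which both represses and activates stress genes, ran from 2.54 to 3.92 FPKM in HLE and from 7.8 to 35.7 in the other lines. Its siCTL values were 3.92 (lowest), 14.8 (median) and 24 (highest), and those in siSFPQ with TGF-beta 3.22, 16 and 35.7, so the groups overlap nearly throughout. It was higher with siSFPQ than with siCTL in HepG2, Huh1 and Huh7 and lower in Hep3b and SK-HEP1, with TGF-beta and without. In Huh7 without TGF-beta the step was small, from 8.71 to 8.82 FPKM.

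EGR1, the gene with the CArG boxes shown above, was above 11 FPKM in HepG2 only: 42.1 in siCTL, 49.2 in siCTL with TGF-beta, 143.9 in siSFPQ and 104.2 in siSFPQ with TGF-beta. Elsewhere it ranged from 0.742 to 10.8. The siRNA went with opposite changes in 2 lines: EGR1 in SK-HEP1 was 9.68 and 10.7 FPKM with siCTL and 1.3 and 2.17 with siSFPQ, while HepG2 rose. Mean changes over the lines had wide errors, -0.32 (SE 0.39) without TGF-beta, negative in 4 of 6 lines, and 0.01 (SE 0.33) with it. The first ranged from -0.73 to 0.06 when 1 line was left out, turning positive without SK-HEP1. The HepG2 siSFPQ libraries had relative depths of 0.4 without TGF-beta and 1.18 with it, and the part of depth in these values was not tested.

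IER3 was the most abundant of ATF3, EGR1 and IER3. Its lowest, median and highest values were 12.9, 158 and 293 FPKM in siCTL, 21.1, 232 and 337 in siCTL with TGF-beta, 14.9, 252 and 863 in siSFPQ, and 54.2, 474 and 664 in siSFPQ with TGF-beta. Huh7 was the lowest line in each group. IER3 was lowest in siCTL in 5 of 6 lines (not Hep3b) and highest in siSFPQ with TGF-beta in 5 of 6 (not HepG2), with a ratio between those groups of 1.55 to 4.21.

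The first comparison asks how the genes respond to TGF-beta while SFPQ is present. In siCTL cells none of the 9 members tested passed the threshold of an adjusted p under 0.05 (limma on log2 of FPKM + 1 with the line as a block), where 0.0986% of the 12165 genes tested did (0.0658% higher and 0.0329% lower). At an unadjusted p under 0.05 there were 4 of the 9 members, JUN, JUNB, JUND and IER3, and 1910 of the 12165 genes tested. The largest mean change was that of JUNB, 1.26 (SE 0.34, adjusted p = 0.146), positive in 6 of 6 lines, and IER3 was also positive in 6 of 6, with 0.38 (SE 0.08, adjusted p = 0.105). FOSB was under the level filter, which asks for 1 FPKM in 6 libraries, and was tested alone: its change was 0.44, positive in 6 of 6 lines, with an exact two-sided sign-flip p of 0.03125, the smallest that 6 lines can give and not adjusted for multiple tests. The median change was 0.08 over the 10 members and -0.03 over all genes tested. Of 5 genes known to respond to TGF-beta, 1 was called higher in siCTL cells, TAGLN (1.39), and 3 in siSFPQ cells, SKIL (1.65), TAGLN (1.36) and PMEPA1 (2.61). TAGLN lost its call without Huh1, HepG2 or HLE in both (0.0757 to 0.107), SKIL without Huh1, Huh7 or HepG2 (0.0515 to 0.0692), and PMEPA1 without any 1 line but Huh7 (0.0571 to 0.0883).

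With SFPQ knocked down, FOSB and JUNB were higher with TGF-beta in 6 of 6 lines. These 2 of the 10 members were called higher and none lower, where 5.13% of 11885 genes were called, 2.25% higher and 2.88% lower. JUNB rose by 1.65 (SE 0.31, adjusted p = 0.034, 6 of 6 lines) and FOSB by 0.65 (SE 0.11, adjusted p = 0.031, 6 of 6 lines). FOSB passed the level filter only through the siSFPQ libraries with TGF-beta, the group where it was high. Its call is therefore no separate support for a rise. Without the filter neither FOSB nor JUNB was called (adjusted p = 0.0814 and 0.0829, limma). IER3 had a change of 0.73 (SE 0.23, adjusted p = 0.0924), positive in 5 lines and negative in HepG2, and FOS one of 0.34 (SE 0.37). Both calls are close to the threshold and were lost when Huh1, Huh7, HepG2, HLE or SK-HEP1 was left out, with adjusted p from 0.0515 to 0.0848, while the changes stayed between 0.60 and 0.68 for FOSB and 1.34 and 1.77 for JUNB. Among stellate and fibroblast markers, which TGF-beta also raises in many cells, COL1A1 (2.61) and PDGFRB (1.25) were the 2 of 4 tested that were called higher, and the 7 markers summed to 5.08 to 120.6 FPKM without TGF-beta and 40.8 to 195.7 with it. Their part in the change of the members was not tested.

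Knockdown of SFPQ without TGF-beta raised FOSL2 and JUNB and lowered JUND. In this comparison 21.7% of 12012 genes were called, 6.69% higher and 15.0% lower, and of 9 members tested 2 were called higher and 1 lower. FOSL2 rose by 0.55 (SE 0.14, adjusted p = 0.0213, 6 of 6 lines) and JUNB by 0.66 (SE 0.19, adjusted p = 0.0358, 5 of 6 lines), and JUND fell by 0.46 (SE 0.13, adjusted p = 0.0318, lower in 5 of 6). IER3 had 0.63 (SE 0.21, adjusted p = 0.0566), and FOSB, under the level filter, 0.31, positive in 6 of 6 lines (exact two-sided sign-flip p = 0.03125, unadjusted). The FOSL2 call was lost without Huh7 (adjusted p = 0.056), the JUNB call without Huh7, HepG2, HLE or SK-HEP1 (0.0763 to 0.106), in 1 fit of all 24 libraries with the line as a block (0.177) and with short RNA rows kept (0.0502), and the JUND call without Hep3b, Huh1, Huh7 or SK-HEP1 (0.0522 to 0.0842) and when libraries were scaled to a common median (0.0704). IER3 was called without Hep3b (0.0299), with that scaling (0.0375), in the fit of all 24 libraries (0.0322) and after removal of each library's GC trend (0.043).

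JUND and JUNB have transcripts of high GC content, 69.7% and 64.9% against a median of 49.1% over the rows. After removal of each library's GC trend their changes were -0.48 (adjusted p = 0.0155, limma) for JUND and 0.66 (adjusted p = 0.0284, limma) for JUNB. In the same comparison the myofibroblast gene ACTA2 fell by 0.37, the 1 of 4 stellate and fibroblast markers called, the macrophage gene CD68 rose by 0.36, the 1 of 2 immune markers called, and none of 10 hepatocyte markers was called. Their part in the members' changes was not tested.

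HOOK2 overlaps JUNB, and the strand of the counting is not given in the sources used here. HOOK2 changed by 0.14 and 0.01 with TGF-beta in siCTL and siSFPQ cells and by 0.10 and -0.03 with knockdown without and with TGF-beta, none of them called, and its level was at most 15.1 FPKM.

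With TGF-beta present, knockdown of SFPQ raised 4 of the 10 members, FOSB, FOSL2, JUNB and IER3, each in 6 of 6 lines, and lowered none. Over all 12022 genes tested 30.3% were called, 8.47% higher and 21.8% lower. JUNB rose by 1.06 (SE 0.24, adjusted p = 0.0135), IER3 by 0.98 (SE 0.12, adjusted p = 0.00242), FOSL2 by 0.64 (SE 0.11, adjusted p = 0.0051) and FOSB by 0.52 (SE 0.12, adjusted p = 0.0151). Here too FOSB passed the level filter only through the siSFPQ libraries with TGF-beta, where it was high, so its call is no separate support. In FPKM the ratios of siSFPQ to siCTL were 1.42 to 2.58 for IER3 and 1.2 to 2.23 for FOSL2, and JUNB ranged from 1.08 in Hep3b to 5.6 in HLE. The 2 called higher without TGF-beta, FOSL2 and JUNB, are among these 4 (100% of the 2 and 50% of the 4), and the 2 comparisons use separate libraries of the same lines.

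Each of the 4 calls was kept when any 1 line was left out. FOSB and JUNB lost theirs without Huh7 and HepG2 together, the lines with the shallowest libraries (adjusted p = 0.0902 and 0.0729). JUND, with -0.13 (SE 0.12), and JUN, ATF3, EGR1, FOS and FOSL1 did not pass. The median change was 0.37 over the members and -0.09 over all genes tested, and the stellate and fibroblast markers went both ways, with 2 of 5 tested called higher and 2 lower. Their part was not tested.

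**Figure D3:**
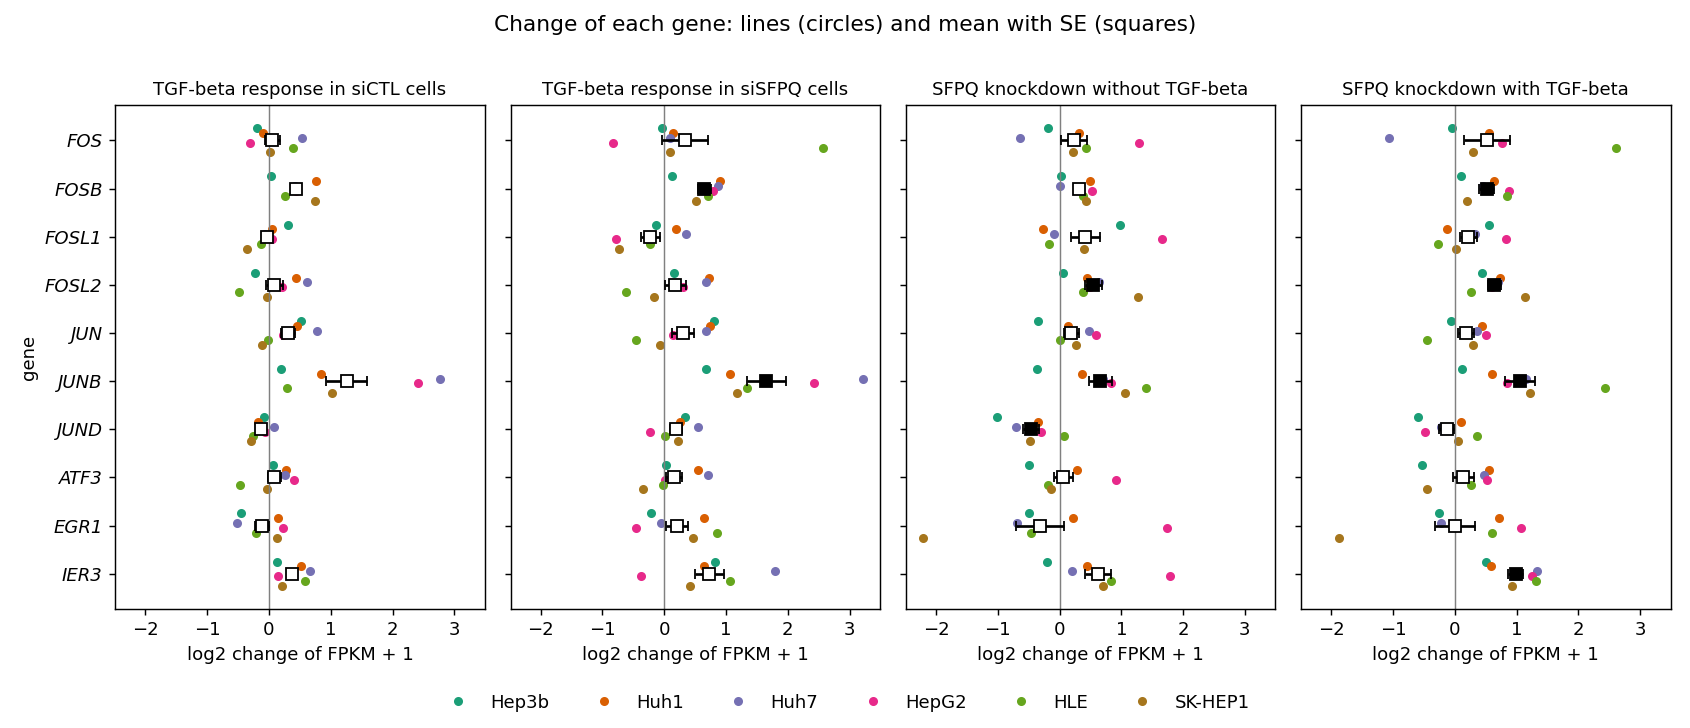
Each panel is 1 comparison, with the log2 change of FPKM + 1 on the horizontal axis. Circles are the 6 lines, squares the mean with its SE (filled where called, and without an SE where FOSB was under the level filter). JUNB lies right of 0 in all 6 lines in 3 of the panels. FOS in HLE (2.57 and 2.61) and EGR1 in SK-HEP1 (-2.22 and -1.88) stand away from the other lines. With knockdown alone EGR1 in HepG2 (1.75) does so on the other side.

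Whether knockdown changed the response to TGF-beta was tested with the interaction over all 24 libraries. No member of 10 was called, where 0.252% of 13495 genes were (0.222% higher and 0.0296% lower). At an unadjusted p under 0.05 there were 2 members, and 1688 of the 13495 genes. JUNB had 0.40 (SE 0.11, adjusted p = 0.238, limma), positive in 6 of 6 lines from 0.01 in HepG2 to 1.05 in HLE, and JUND 0.33 (SE 0.09, adjusted p = 0.222, limma), positive in 5 of 6 and called when HepG2 was left out (0.43, adjusted p = 0.0412, limma). FOSB had 0.21 (SE 0.10), IER3 0.35 (SE 0.17) and FOSL2 0.09 (SE 0.08). The difference between the JUNB responses in siSFPQ and siCTL cells, which this term tests, thus did not pass the threshold.

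Summed over the 7 FOS and JUN genes, TGF-beta went with more AP-1 RNA in Huh1, Huh7 and HepG2, by ratios of 1.43, 1.71 and 1.77 in siCTL cells and 1.8, 2.76 and 1.93 in siSFPQ cells. HLE and SK-HEP1, where FOSL1 had the largest mean share, stayed at ratios of 0.907 to 0.982, and Hep3b had 1.01 and 1.31. These sums are descriptions and carry no test.

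After SFPQ knockdown more of the other immediate early genes were called higher than lower. The list holds 29 genes that growth factors and stress switch on without new protein synthesis, and 23 were tested in each knockdown comparison. It was chosen with earlier results of these data known, so its counts describe these libraries and are no independent test. Without TGF-beta 11 were called higher and 2 lower, and with TGF-beta 16 higher and 1 lower. Over all genes tested 6.69% and 8.47% were called higher. The 11 called higher without TGF-beta were all among the 16 (100% of the 11 and 68.8% of the 16). Their median changes were 0.45 and 0.66, against -0.07 and -0.09 over all genes tested. The genes of smallest p without TGF-beta were the EGF receptor ligand HBEGF (1.04, SE 0.13, adjusted p = 0.00288, limma), the MAP kinase phosphatase DUSP1 (1.20, SE 0.18, adjusted p = 0.00433, limma), SRF (-0.81, SE 0.12, adjusted p = 0.00435, limma) and PHLDA1 (0.88, SE 0.13). With TGF-beta they were DUSP1 (1.39), IER2 (1.07), the matrix protein CTGF (1.07) and PHLDA1 (0.80). SRF, the factor that binds CArG boxes, was lower in 6 of 6 lines in both. Without Huh7 and HepG2 the counts were 7 and 11 called, in either direction.

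**Figure D4:**
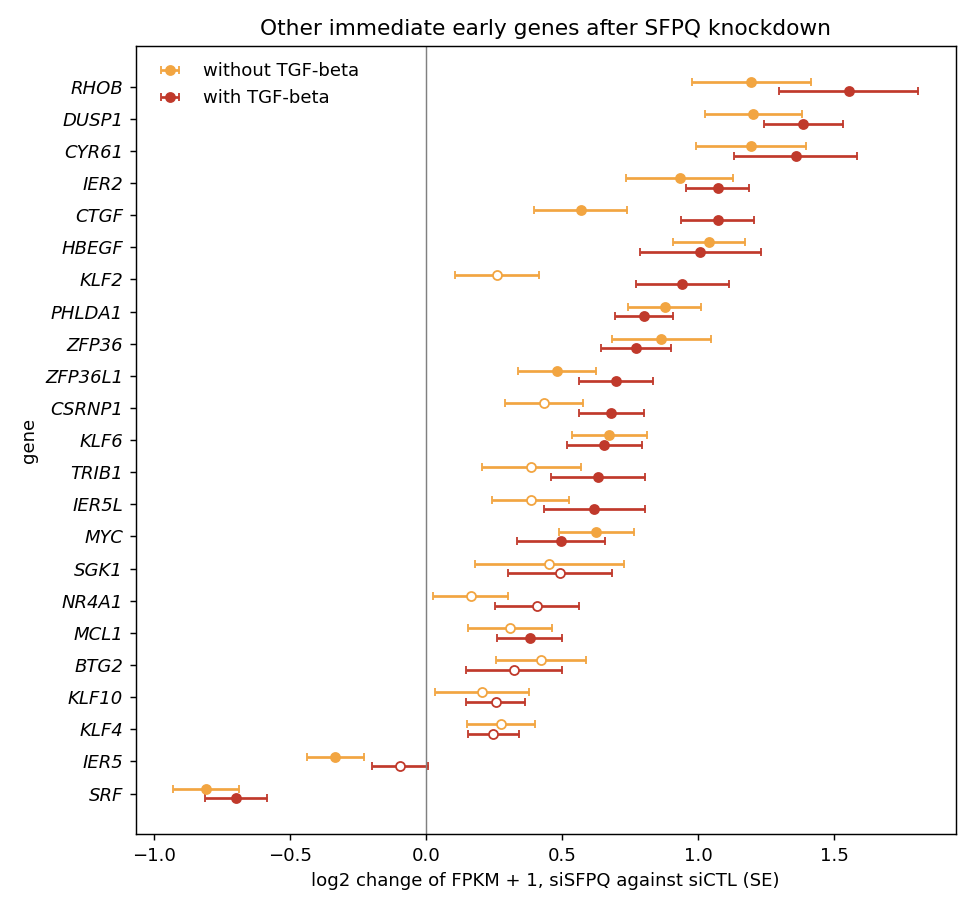
Mean log2 change of FPKM + 1 with its SE over 6 lines for each other immediate early gene tested, siSFPQ against siCTL, without TGF-beta (orange) and with TGF-beta (red), filled where called. Most genes lie right of 0, with 11 and 16 called higher, and SRF lies left of 0 in both. The list was chosen with earlier results of these data known.

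With TGF-beta in siSFPQ cells 2 of 24 of these genes were called higher, CTGF (0.92) and the mRNA decay factor ZFP36L1 (0.76), where 2.25% of all genes were called higher. Both calls were lost when Huh1, Huh7, HepG2, HLE or SK-HEP1 was left out, with adjusted p from 0.0514 to 0.0949. In siCTL cells limma called 0 of 23. There IER2 had 0.31 (adjusted p = 0.104) and KLF10 0.40 (adjusted p = 0.105), both positive in 6 of 6 lines, and 0 of 24 were called in the interaction.

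Of 18 MAP kinases and SRF cofactors, which carry signals to AP-1 and early genes, 1 was called higher and 1 lower in each knockdown comparison, where 21.7% and 30.3% of all genes were called without and with TGF-beta: MAP2K7, an activator of JNK, rose by 0.54 and 0.60, and the p38 kinase gene MAPK14 fell by 0.44 and 0.39. TGF-beta in siSFPQ cells raised 2 of the 18, the SRF cofactors MKL1 (0.80, SE 0.11, adjusted p = 0.0232, limma) and ELK3 (0.83, SE 0.15, adjusted p = 0.034, limma), and none was called with TGF-beta in siCTL cells or in the interaction. MKL1 lost its call without Huh7 or HLE (0.0515 and 0.0565), ELK3 without Huh1, Huh7, HepG2 or HLE (0.0542 to 0.0817), and MAPK14 with TGF-beta without Hep3b, HepG2, HLE or SK-HEP1 (0.0503 to 0.0601). Of the ERK and EGR feedback inhibitors, 3 of 10 tested were called higher with knockdown, the phosphatases DUSP5 (1.32 without and 0.93 with TGF-beta) and DUSP4 (0.74 and 0.42) and the ERK inhibitor SPRY4 (0.85 and 1.01), and none lower. DUSP4 lost its call without Huh7 or HLE in the first comparison (0.073 and 0.0797) and without any 1 line but SK-HEP1 in the second (0.0595 to 0.0865). Among other AP-1 and zipper partners ATF1 rose (0.71 and 0.83) and CREM fell (-0.58 and -0.46), and these were the 1 higher and 1 lower of 13 and of 11 tested, CREM losing its call without TGF-beta when Huh7 was left out (0.0514). Over all genes tested 6.69% were called higher and 15.0% lower without TGF-beta, and 8.47% and 21.8% with it. The partner list was near those shares for higher calls and under them for lower calls.

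Genes that AP-1 is known to activate were called in both directions after knockdown. Over all genes tested 6.69% were called higher and 15.0% lower without TGF-beta, and 8.47% and 21.8% with it. The lower calls among these targets did not exceed those shares. Without TGF-beta 4 of 14 tested were called higher and 2 lower after knockdown, the lower ones being the cell cycle gene CCND1 (-1.22, SE 0.17, adjusted p = 0.00378, limma) and the angiogenic factor VEGFA (-0.63), and the higher ones of smallest p EREG (0.59) and IL8 (0.50). Leaving out 1 line ended the calls of EREG (Huh1, Huh7, HepG2 or HLE, 0.0532 to 0.0623), IL8 (Huh7, HepG2, HLE or SK-HEP1, 0.0799 to 0.0862) and VEGFA (HLE or SK-HEP1, 0.052 and 0.0546). With TGF-beta the counts were 4 higher and 1 lower of 14, with CCND1 at -1.37, the cytokine gene IL11 at 1.49 and HMGA1 at 0.46. TGF-beta in siSFPQ cells raised 4 of 15, among them IL11 (2.26, SE 0.40, adjusted p = 0.034, limma), HMOX1 (0.72) and the urokinase receptor PLAUR (0.71), and lowered none, where 2.25% of all genes were called higher. Each of these 3 lost its call in 5 of the 6 fits without 1 line, with adjusted p from 0.0508 to 0.103. Only Huh7 and HLE, for HMOX1 and PLAUR in turn, and SK-HEP1, for IL11, could be left out. In siCTL cells IL11 had 1.24 (adjusted p = 0.0655, limma), positive in 6 of 6 lines and not called. Several of these are also direct SMAD targets.

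Of the stress genes around ATF3, 1 of 10 was called higher with knockdown without TGF-beta, DDIT4 (0.94), and 2 of 10 with it, DDIT4 (1.32) and CEBPB (0.66), where 6.69% and 8.47% of all genes were called higher. None was called lower. CEBPB, a liver zipper factor, was the 1 gene of this list called in the interaction (0.74, SE 0.12, adjusted p = 0.0398, limma), and that call was kept only without HepG2 among the 6 fits without 1 line (adjusted p = 0.0842 to 0.159 in the other 5). Stress factors ATF4 and DDIT3 had -0.11 (SE 0.12) and 0.16 (SE 0.12) without TGF-beta.

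Across the 24 libraries, after each line's mean was removed, the members most alike were FOSB and JUNB (Pearson r = 0.85), FOSB and IER3 (0.80) and JUNB and IER3 (0.74). In that order they were 0.85, 0.86 and 0.92 without HepG2, and 0.83, 0.76 and 0.68 without HLE. The points share the 4 groups and lines, so these values describe the libraries and carry no test. Of 6942 candidate genes, those most like JUNB were DAPK3 (0.948), LOC284454 (0.944) and ZYX (0.94), and those most like IER3 were FHL3 (0.915), TESK1 (0.89) and ZNF697 (0.889). For EGR1 they were HSPBAP1 (0.873), ITPRIPL2 (0.836) and SRSF12 (0.82), and for FOS OTUB2 (0.864), DENR (0.855) and CTHRC1 (0.833). TMEM206 (0.778) and SLC16A6 (0.769) were among the 3 most like FOSL1, and ATF3 was most like PHLDA2 (0.812), NES (0.795) and RASGEF1B (0.789).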

How the data were processed

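Per the submitters' processing notes, the reads were processed with TopHat2 2.1.1, Cufflinks 2.2.1 and the build hg19, while annotation, settings and strand handling were not given in the sources used here. What the submitters deposited is titled as raw counts but holds FPKM as the authors made them. Its 2 empty columns were not used. The 10 genes and all gene lists were chosen with earlier results of these data known. Groups were taken from the sample titles.

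log2(FPKM + 1), a scale that understates changes of low genes, was fitted with limma 3.58.1 (R 4.3.3). The line was a block, eBayes used its trend and robust options, and p-values were adjusted by Benjamini-Hochberg across every gene of the comparison. Estimates under 1e-06 were set to 0, 1618 short RNA rows were left out, and a gene needed 1 FPKM in at least 6 of the libraries compared. Each comparison of 2 groups used 12 libraries, and the interaction used 24, with a siRNA and a TGF-beta effect for each line. Each had 5 residual degrees of freedom. FOSB, where under the filter, was tested with the exact sign-flip test over 64 flips. Where FOSB passed the filter, it did so through the siSFPQ libraries with TGF-beta. All 10 genes are named in every comparison, and of other lists the 2 to 4 with the smallest p, except that some genes the rule takes are not reported here. The fit was tested on simulated data.

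Libraries are paired by cell line, which the labels give. Departures from group means had correlations of 0.874 to 0.978 within a line and of -0.514 to 0.41 for the 180 pairs that differ in line and group. No 2 libraries held identical values. Depth was estimated with an assumed fragment length of 180 bases. Promoters came from RefSeq (GRCh38.p14), another build than the table's, and GC content from GENCODE annotation matched by symbol, for 86.5% of rows. Python 3.11.15 and matplotlib 3.10.9 were used for figures.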

Additional observations from a re-analysis of the deposited data

Results flagged for a closer look

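In each group, and for each comparison's changes, the highest or lowest line was marked where its gap to the nearest other line, divided by the range of the 6, was above the critical value of Dixon's test. This was done on the log2 scale for 90 sets and marked 9, where chance alone gives about 1 in 20, or 4.5. JUN was marked low in Hep3b in all 4 groups, at 6.81 FPKM in siCTL, 10.2 in siCTL with TGF-beta, 5.12 in siSFPQ and 9.7 in siSFPQ with TGF-beta, against 43.1 or more in the other lines. EGR1 was marked high in HepG2 siSFPQ, at 143.9 FPKM against 1.02 to 5.51. JUNB was marked low in HLE siCTL with TGF-beta, at 26.3 FPKM against 124 to 282. FOS in HLE was marked for its change with TGF-beta in siSFPQ cells, 2.57 against -0.83 to 0.14, and in the interaction, 2.18 against -0.53 to 0.24. JUND in HepG2 was marked in the interaction, at -0.18 against 0.28 to 0.52. The 4 JUN marks describe 1 line and are not separate events.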

How the results depend on the processing

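Members called numbered 2 with TGF-beta in siSFPQ cells, 3 with knockdown alone and 4 with knockdown under TGF-beta. Without the line as a replicate block each fell to 0, as did both counts of other immediate early genes (13 and 17). Without a filter on low values the first and second of these gave 0 and 0, and with short RNA rows kept the first gave 1 and the second 2. Without Huh7 and HepG2 together, an alternative chosen after seeing the data, the counts were 1, 0 and 2, and 7 and 11 for the other immediate early genes. Leaving out each line in turn gave 0 to 2, 0 to 3 and 4 to 5 members, 10 to 13 and 13 to 17 other immediate early genes, and 0 to 1 members in the interaction, with the 1 found without HepG2. For TGF-beta in siCTL cells every alternative gave 0. Scaling to a common median moved the calls over all genes from 804 higher and 1804 lower to 1171 and 1370 for knockdown without TGF-beta, from 1018 and 2621 to 1579 and 1714 with it, and from 268 and 342 to 294 and 101 for TGF-beta in siSFPQ cells. FOSB under the filter kept its direction and sign-flip p with a pseudocount of 0.1 and with scaling; leaving out a line was not run for it because 5 lines cannot reach the threshold.

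Signs turned only for changes that were not called, among them FOS with TGF-beta in siSFPQ cells (0.34) and in the interaction (0.28), both without HLE, and EGR1 with knockdown alone (-0.32), without SK-HEP1. Without Huh7 and HepG2 together, FOSL2 and ATF3 were -0.079 and -0.041 for TGF-beta in siCTL cells, ATF3 was -0.136 and TAGLN 0.0419 for knockdown without TGF-beta, ATF3 was -0.0418 and EGR1 -0.204 for knockdown with TGF-beta, and JUN was 0.0423 in the interaction. With a pseudocount of 0.1 EGR1 was -0.00615 for knockdown with TGF-beta and JUN 0.000111 in the interaction, where scaling gave JUN 0.0223 and removal of the GC trend, also chosen after seeing the data, 0.015. Leaving out a line gave FOS -0.0406 to 0.128, FOSL1 -0.0905 to 0.0406 and FOSL2 -0.0223 to 0.2002 for TGF-beta in siCTL cells, and FOS -0.109 to 0.571 in siSFPQ cells. For knockdown without TGF-beta it gave ATF3 -0.106 to 0.175, EGR1 -0.728 to 0.0648, ATF4 -0.18 to 0.00595 and TAGLN -0.218 to 0.0318, for knockdown with TGF-beta EGR1 -0.207 to 0.383, and in the interaction FOS -0.0979 to 0.443, JUN -0.0662 to 0.0829 and ATF3 -0.00241 to 0.166. The cause was not tested. The estimated depth limits FOSB, FOS and FOSL1 in Huh7 most.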
